A study of Mus musculus with 20 samples.

Results

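The 8 genes described here encode transcription factors that hold the identity of the hepatocyte and lie outside the nuclear receptors, namely the forkhead factors Foxa1, Foxa2 and Foxa3, the ONECUT factors Onecut1 and Onecut2, the C/EBP factors Cebpa and Cebpb, and the homeobox factor Prox1. They were chosen by gene symbol and joined by Ensembl identifier, and all 8 were present in both deposited RNA-seq tables, which list 56884 genes for males and 18149 for females. The series holds 20 mouse liver samples, 12 of RNA-seq and 8 of ATAC-seq, from mice aged 11 to 14 weeks. For RNA-seq each sex was represented by 3 wild-type (WT) mice, whose genotype is given as Midn XTR, and 3 Midn-T mice, whose genotype is given as Midn TR. ATAC-seq covered, within each sex, 2 WT mice and 2 Midn-T ones. Both genotypes carry the XTR cassette, an invertible gene trap in an intron of Midn, which encodes the nuclear protein midnolin. Midn-XTR mice were crossed with mice carrying Albumin-Cre, a transgene whose promoter is active in hepatocytes, and recombination by Cre turns the cassette into its trapped (TR) state. Recombination was not measured by cell type in the tables used here, and the RNA was taken from whole tissue, which holds other cell types beside hepatocytes. Whether the WT mice also carried Albumin-Cre is not given in the sources used here.

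The values below are the authors' mean normalized counts, each taken over the 6 mice of 1 sex with WT and Midn-T pooled. The tables used here hold no value for a single mouse or a single genotype apart from the authors' own comparison, which was not used. The levels therefore carry no spread between mice and no test, and no comparison of Midn-T with WT is given. The comparison left is that of each factor with other genes within a sex, and of the male with the female table. The authors normalized the tables of the 2 sexes separately, so each female to male ratio was centred on the median gene. The male table lists 26580 genes at a mean of 0, while the female table lists none below 6.61. A gene not listed for females therefore has no female level here, which does not show that it is not expressed. In bulk tissue, fewer cells of a type and less RNA per cell cannot be told apart.

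FOXA proteins are forkhead factors that can bind their sites within compacted chromatin and open liver enhancers to other factors, and they act from the specification of the liver onward. ONECUT1, also known as HNF6, and ONECUT2 carry a cut domain beside a homeodomain and take part in the growth of both hepatocytes and bile ducts. C/EBPα and C/EBPβ are basic leucine zipper factors. The former drives metabolic genes of the resting hepatocyte and the latter takes part in the acute-phase and regenerative responses. PROX1 is a homeobox factor that accompanies hepatocytes from the first hepatoblasts onward, and it is also known for specifying lymphatic endothelium.

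Of the 8 genes, 3 have promoters that differ in make-up and are shown as examples. The motifs searched include words for FOXA, C/EBP and HNF6 sites. None of these 3 windows held the word searched for its own gene's family. Other forms of these sites were not searched, so the windows may still hold them. Each sequence holds the 250 bases before the start of the canonical transcript in GRCm39, written 5′ to 3′ on the strand of the gene, with the motifs found by letter match in capitals. Foxa3 lies on the minus strand, with its window at chr7:18757472-18757721. Foxa2 lies on the minus strand, with its window at chr2:147889006-147889255. Cebpa lies on the plus strand, with its window at chr7:34818478-34818727.
Foxa3: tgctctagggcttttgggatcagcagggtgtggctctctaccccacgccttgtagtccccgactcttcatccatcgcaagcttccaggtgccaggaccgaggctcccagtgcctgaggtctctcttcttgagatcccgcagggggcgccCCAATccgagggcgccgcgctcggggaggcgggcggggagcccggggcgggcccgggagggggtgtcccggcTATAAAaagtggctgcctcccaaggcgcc
Foxa2: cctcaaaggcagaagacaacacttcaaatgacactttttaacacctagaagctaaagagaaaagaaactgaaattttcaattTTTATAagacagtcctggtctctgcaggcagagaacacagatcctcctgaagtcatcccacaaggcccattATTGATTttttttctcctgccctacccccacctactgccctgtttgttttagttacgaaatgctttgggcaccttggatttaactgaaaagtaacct
Cebpa: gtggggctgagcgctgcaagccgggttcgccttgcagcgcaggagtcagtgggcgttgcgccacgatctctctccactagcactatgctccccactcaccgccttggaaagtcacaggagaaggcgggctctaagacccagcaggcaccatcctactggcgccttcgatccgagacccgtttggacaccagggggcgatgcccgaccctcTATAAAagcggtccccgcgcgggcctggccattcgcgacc
In the Foxa3 window the capitals mark a CCAAT box that lies 101 to 97 bases upstream of the start and a TATAAA that lies 29 to 24 bases upstream. In the Cebpa window they mark a TATAAA at 40 to 35 bases upstream. In the Foxa2 window they mark ATTGATT, a core recognised by HNF6, at 97 to 91 bases upstream, and farther out a TATAAA on the opposite strand, read here as TTTATA, at 168 to 163 bases upstream.

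The searched motifs were the FOXA core TGTTTAC, the C/EBP word TTGCNNCAA, the HNF6 core ATTGATT and the HNF4A core CAAAGTCCA. The CCAAT box and TATAAA were searched too, all of them on both strands. The C/EBP word is not its own reverse complement, and it fixes the spacing between its ends. C/EBP sites of another spacing were not searched. The letters of these motifs do not contain one another. Of 21757 promoters of protein-coding genes, 2.72% held the FOXA core, 1.92% the C/EBP word and 2.52% the HNF6 core. The HNF4A core was in 0.372%, a CCAAT box in 36.5% and TATAAA in 11.9%. Among the 8 factors, 1 promoter held the FOXA core (Foxa1), 1 the HNF6 core (Foxa2), 3 a CCAAT box and 3 TATAAA. None held the C/EBP word or the HNF4A core in this window. The promoters differed widely in base composition. That of Cebpb was 81.6% G and C and that of Foxa2 was 40.8%, beside a median of 53.2% over all promoters. The ratio of observed to expected CpG was 0.101 at Foxa2 and between 0.624 and 0.985 at the other 7 factors, beside a median of 0.474. A letter match is a description of the window and does not show a bound site, and the lack of a match does not show that a site is absent. The windows of Foxa1 and Prox1, and the last bases of that of Cebpa, lie inside the annotated gene. Another annotated transcript of these genes starts upstream of the canonical one.

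The factors spanned a wide range of levels, with Cebpa at the top in both sexes once levels were divided by length. Division by the length of the exon union, all annotated exon bases of a gene counted once, allows levels to be compared between genes. Per kilobase (kb), the pooled mean of Cebpa was 3487 in males and 3218 in females. The lowest factor was Foxa2 in males at 117 per kb and Onecut1 in females at 92.1 per kb. Cebpa thus stood 29.9 times above the lowest factor in males and 34.9 times in females. Protein-coding genes with a pooled mean of at least 10 numbered 13102 in males and 13233 in females, and their median was 76.4 per kb in males and 75.5 per kb in females. All 8 factors lay above it in both sexes on this scale. By the pooled mean without division by length, Foxa2 in males, at 396, lay below the median of 480. On that scale Onecut2 stood above Cebpa in females, at 10263 against 8482.

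In males the order per kb was Cebpa, Cebpb, Foxa3, Prox1, Onecut2, Foxa1, Onecut1 and Foxa2. In females Prox1 stood above Foxa3 and Foxa2 above Foxa1, and Onecut1 came last. Cebpa, Cebpb and Onecut2 held the same place in both orders, 3 of 8 factors. Per kb of coding length the count was 6, and the exchange of Prox1 and Foxa3 was not seen, since Prox1 stood above Foxa3 in both sexes, at 4023 against 2518 in males and 3493 against 1345 in females. On that scale Onecut2 came second in both sexes, at 5794 and 6775, while Onecut1 and Foxa2 still took different places in the sexes. Per kb of exon union, the widest step was between Onecut2 and the next factor. Onecut2 stood 3.29-fold above Foxa1 in males and 3.47-fold above Foxa2 in females. This left 5 factors in an upper and 3 in a lower group. On the exon union scale some neighbours were close. Examples were Foxa1 over Onecut1 in males (1.12-fold), Foxa2 over Foxa1 in females (1.08-fold) and Foxa3 over Onecut2 in females (1.10-fold). Whether any neighbours differ beyond the spread between mice cannot be told from pooled means.

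**Figure D1:**
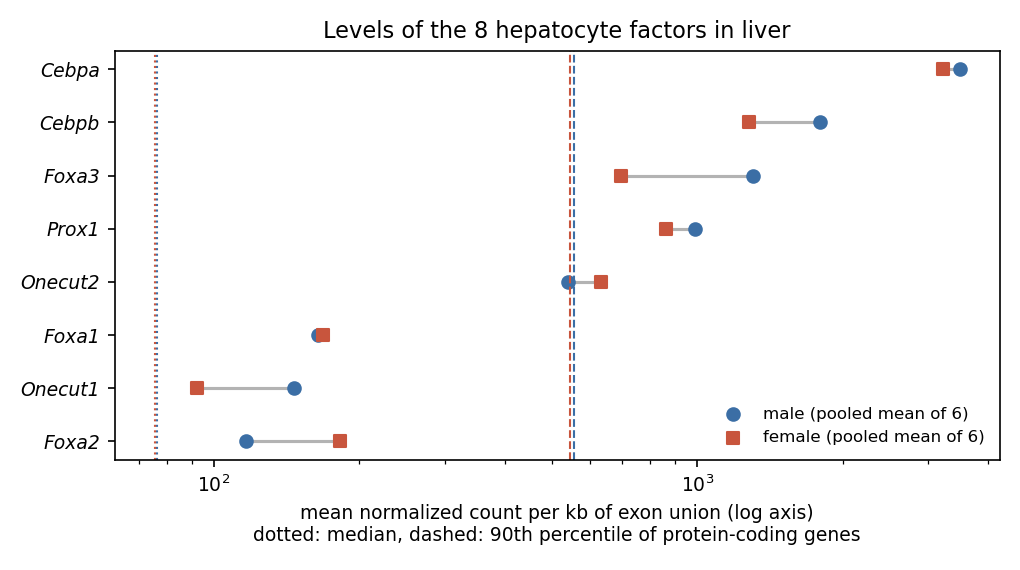
The authors' pooled mean normalized count per kb of exon union for each factor, on a log axis, with males as circles and females as squares, and with the median (dotted) and 90th percentile (dashed) of protein-coding genes of each sex. Cebpa lies farthest to the right in both sexes, a gap separates Onecut2 from Foxa1, Onecut1 and Foxa2, and no point has an error bar because the values are means over 6 mice.

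By the pooled mean itself, without division by length, 3 factors lay at or above the 90th percentile of protein-coding genes in males and 3 in females, and in both sexes they were Cebpa, Onecut2 and Prox1. Per kb, the count was 4 in males, where Cebpa, Cebpb, Foxa3 and Prox1 passed that percentile, and 5 in females, where Onecut2 joined them. The percentile stood at 557 per kb in males and 546 per kb in females, and Onecut2 lay at 541 per kb in males and 632 per kb in females. The place of Onecut2 therefore rested on how its length was treated. Its single annotated transcript is 16234 bases long, of which 90.7% is noncoding, the largest share among the 8.

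Foxa3 made up most of the FOXA signal, and more of it in the male than in the female table. The gene spans chr7:18747209-18757471 on the minus strand of GRCm39 (ENSMUSG00000040891, 2 exons, 2045 exon bases). FOXA3 is the family member known for maintaining adult hepatocyte gene expression, including that of glucose metabolism. Its pooled mean was 2667 in males and 1424 in females, or 1304 and 697 per kb. The centred log2 ratio of female over male was -0.93, which corresponds to a level 1.90 times higher in the male table. Among 12436 genes with a pooled mean of at least 50 in both tables, 97.0% had a smaller ratio in size than Foxa3. Of the summed FOXA level per kb, Foxa3 made up 82.3% in males and 66.5% in females.

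Foxa2 showed the opposite sign. It spans chr2:147884797-147889005 on the minus strand (ENSMUSG00000037025, 2 exons in the canonical transcript, 3397 exon bases), and FOXA2 is known for its part in bile acid and lipid homeostasis. Its pooled mean was 396 in males and 620 in females, or 117 and 182 per kb. The centred log2 ratio was 0.62, a level 1.54 times higher in the female table, and 92.6% of genes had a smaller ratio in size. Its share of the FOXA level was 7.36% in males and 17.4% in females.

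Foxa1 was nearly equal in the tables of the sexes. It spans chr12:57587414-57593702 on the minus strand (ENSMUSG00000035451, 3364 exon bases), and FOXA1 acts together with FOXA2 in the onset of liver development. Its pooled mean was 553 in males and 567 in females, or 165 and 169 per kb. The centred log2 ratio was 0.01, and only 4.73% of genes had a smaller ratio in size. Foxa1 and Foxa2 thus lay above 0 and Foxa3 below 0 on the same scale, and the summed FOXA level was 1585 per kb in males and 1048 per kb in females. The lower female sum came from Foxa3, since the other members of the family were no lower there.

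The 2 ONECUT genes also differed in sign. Onecut1, at chr9:74769118-74800594 on the plus strand (ENSMUSG00000043013, 5804 exon bases), had a pooled mean of 849 in males and 535 in females, or 146 and 92.1 per kb. Its centred log2 ratio was -0.69, a level 1.61 times higher in the male table, and 94.0% of genes had a smaller ratio in size. Onecut2 (ENSMUSG00000045991, plus strand of chromosome 18) had a pooled mean of 8778 in males and 10263 in females, or 541 and 632 per kb. Its centred log2 ratio was 0.20, and 56.8% of genes had a smaller ratio in size, so it lay near the middle of all genes. Onecut2 made up 78.7% of the ONECUT level in males and 87.3% in females, and Onecut3, the third relative, had a pooled mean of 0.30 in males and is not listed for females.

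The level of Onecut1 depends on how shared exons are treated. A long noncoding gene on the same strand, Gm20649, shares 2171 of its exon bases, or 37.4% of its exon union, and was listed at 0 in males and not listed in females. How the authors' counting treated reads in the shared bases is not given in the sources used here. With only the unshared bases as its length, Onecut1 stood at 234 per kb in males and 147 per kb in females, which put it at place 6 in males and place 8 in females. These lengths do not touch its female to male ratio.

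**Figure D2:**
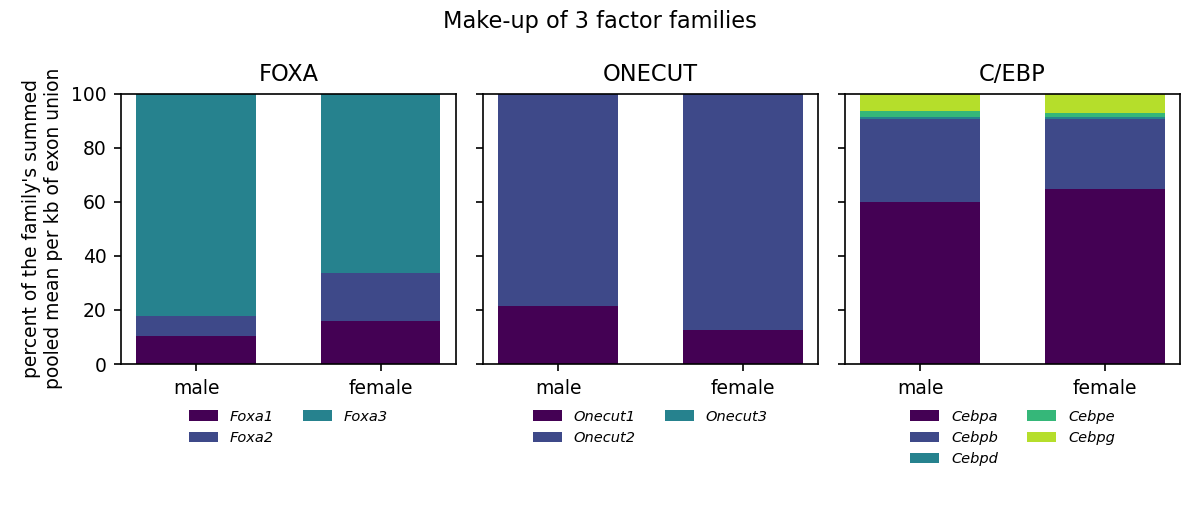
Share of each family member in its family's summed pooled mean per kb of exon union, in percent, for males and females, with 1 bar per sex in each of the FOXA, ONECUT and C/EBP families. Foxa3 takes 82.3% of the male and 66.5% of the female FOXA bar, Onecut2 takes most of both ONECUT bars, and Cebpa and Cebpb fill most of both C/EBP bars.

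Cebpa and Cebpb carried most of the C/EBP level per kb of exon union, counted over Cebpa, Cebpb, Cebpd, Cebpe and Cebpg. Cebpa, with 1 exon in its canonical transcript, lies at chr7:34818718-34821353 on the plus strand (ENSMUSG00000034957, 2636 exon bases) and had a pooled mean of 9192 in males and 8482 in females. Its centred log2 ratio was -0.14, and 41.5% of genes had a smaller ratio in size, less than the middle of all genes. Cebpb, also of 1 exon, lies at chr2:167530835-167532338 on the plus strand (ENSMUSG00000056501, 1504 exon bases), with a pooled mean of 2699 in males and 1923 in females, or 1794 and 1279 per kb. Its centred log2 ratio was -0.51, a level 1.42 times higher in the male table, and 88.5% of genes had a smaller ratio in size. Per kb, Cebpa made up 59.8% of the family in males and 64.9% in females, and Cebpb 30.8% and 25.8%.

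The other C/EBP genes were lower on this scale. Cebpg, which forms dimers with the other family members and lacks their activating domain, made up 6.48% in males and 7.13% in females. The place of Cebpg rested on the length used, since per kb of coding length it made up 28.3% in males and 30.1% in females, above Cebpb at 18.2% and 14.7%. Cebpe, known from granulocytes, made up 2.18% and 1.66%, and Cebpd, a gene of the acute-phase response, 0.826% and 0.533%. The centred log2 ratio was -0.89 for Cebpd, -0.64 for Cebpe and -0.12 for Cebpg. All 5 of these genes therefore had a ratio below 0, between -0.89 and -0.12. Cebpb shares 312 exon bases, 20.7% of its exon union, with Peds1 on the opposite strand, which had a pooled mean of 294 in males and 263 in females. The counting was strand-aware, so reads of the opposite strand were kept apart.

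Prox1 was among the higher factors in both sexes. It spans chr1:189850232-189904637 on the minus strand (ENSMUSG00000010175, 8973 exon bases) and had a pooled mean of 8895 in males and 7722 in females, or 991 and 861 per kb. Its centred log2 ratio was -0.23, and 60.8% of genes had a smaller ratio in size. It made up 98.6% of the summed level of Prox1 and Prox2 in males and 97.8% in females. The antisense gene Prox1os, which overlaps 976 of its exon bases on the opposite strand, had a pooled mean of 264 in males and 310 in females. Lymphatic endothelium also expresses Prox1, and the lymphatic marker Pdpn had a pooled mean of 10.1 in males and 16.6 in females. Lyve1, which sinusoidal endothelium shares, had 287 and 213. Flt4, of the same endothelial and lymphatic list, was far higher, at 1598 in males and 1574 in females. That list does not separate lymphatic from other endothelium, so the level of Flt4 is no measure of lymphatic cells alone. The part of these cells in the Prox1 level was not tested.

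Over the 8 factors, 3 centred log2 ratios lay above 0 (Foxa2, Onecut2 and Foxa1) and 5 below, with a median of -0.18 between extremes of -0.93 and 0.62. Among all 12436 genes the 5th and 95th percentiles were -0.49 and 0.59 and the median size of a ratio was 0.17. Of the 8 factors, 6 had a larger ratio in size than that median, and 4 lay outside the 5th to 95th percentile range, namely Foxa2, Foxa3, Onecut1 and Cebpb. Cebpb lay just outside it, at -0.51. These are descriptions of pooled means with no measure of error. The median log2 ratio of all genes before centring was 0.02, so the separate normalization shifted the tables against each other by little beside the ratios of these 4 factors. Sex and any difference in handling between the male and female libraries cannot be told apart.

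**Figure D3:**
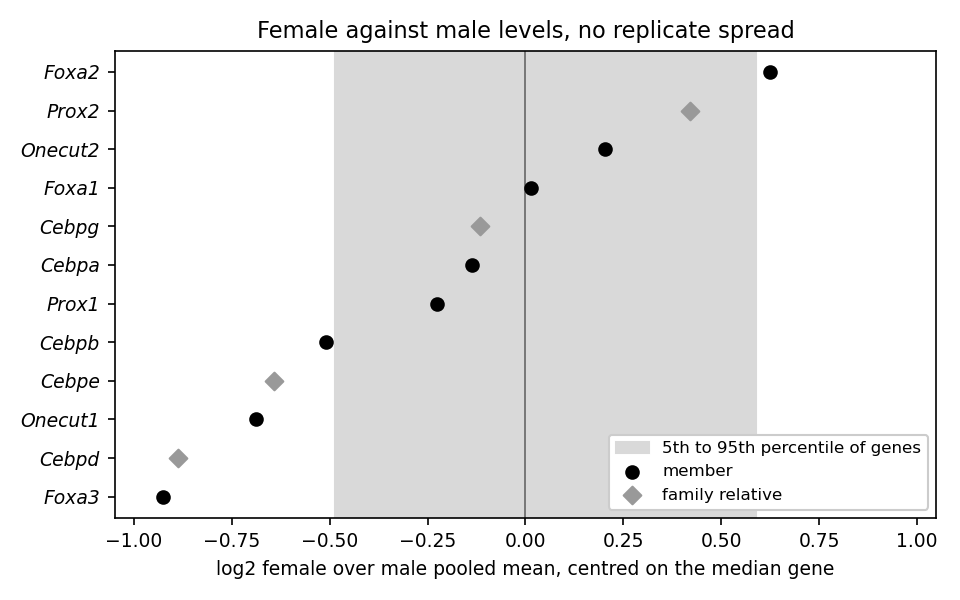
Centred log2 ratio of the female over the male pooled mean for the 8 factors (black circles) and 4 of their relatives (grey diamonds), with the 5th to 95th percentile range of 12436 genes shaded. Foxa3, Onecut1 and Cebpb lie to the left of the shaded range and Foxa2 to its right, with Foxa1 close to 0, and no point has a replicate spread.

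For scale, ratios were also taken for genes of well-known sex bias in mouse liver. Of 8 female-biased genes, 7 had a ratio, all above 0. The remaining gene, A1bg, had a pooled mean of 0.77 in males and is not listed for females, so its direction was not seen. Cux2, a cut-domain relative of the ONECUT genes, had a pooled mean of 27.3 in males and 1658 in females, a centred log2 ratio of 5.90. Of 12 male-biased genes, 8 had a ratio, all below 0, and the smallest in size was that of Bcl6, a repressor of female-biased genes, at -1.14. The ratio of Foxa3 was smaller in size than that of each of these genes that had a ratio. The labels of the sexes were matched by Xist, which had a pooled mean of 14.0 in males and 72478 in females. The 4 Y-linked genes searched were listed with pooled means of 964 or more in males. They were not listed in females, so they have no female level here.

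Beside 23 other transcription factors of the hepatocyte network, the 8 factors were spread from near the top to near the bottom per kb. Hnf4a, the nuclear receptor central to this network, led the 31 genes in both sexes at 4606 per kb in males and 3948 per kb in females, and Cebpa came second in both. In males Cebpb took place 5, Foxa3 place 9, Prox1 place 11 and Onecut2 place 15. In females they took places 8, 13, 10 and 15. Foxa1, Onecut1 and Foxa2 took places 24, 26 and 28 in males, and Foxa2, Foxa1 and Onecut1 took places 22, 25 and 29 in females. Of the 23 other network genes, 11 had a centred log2 ratio above 0 and 12 below, with a median of -0.03. The median of the 8 factors was -0.18, and the lists were not compared by a test. Hnf4a had a centred log2 ratio of -0.24.

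The liver label of the tissue was matched by the defining genes of hepatocytes. The pooled mean of Alb, which encodes albumin, was 1.73e+06 in males and 2.33e+06 in females, and 16 of the 17 hepatocyte target genes in the list were found. Of these, 15 in males and 14 in females lay at or above the 90th percentile of protein-coding genes by their pooled mean, and the fetal gene Afp was the lowest at 34.4 and 37.7. Cholangiocytes, which also express Onecut1 and Onecut2, had low markers: the 6 summed to 1075 in males and 1207 in females, of which Spp1 gave 737 and 850, while Krt19 had 19.7 and 38.1. Krt19 had a centred log2 ratio of 0.93, and 5 of the 6 cholangiocyte markers had a ratio above 0, with a median of 0.56. Krt19, Krt7, Cftr and Epcam had pooled means below 50 in males, the minimum used for centring. Spp1 and Sox9, above that minimum in both sexes, had ratios of 0.19 and -0.25. All 6 stellate cell markers lay above 0, with a median of 0.38, and their sum was 9448 in males and 12359 in females. The 7 endothelial markers summed to 11711 and 13167 and the 8 macrophage and leukocyte markers to 8356 and 8903. No marker in these lists was at 0, and the part of these cells in the levels of the 8 factors was not tested.

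**Figure D4:**
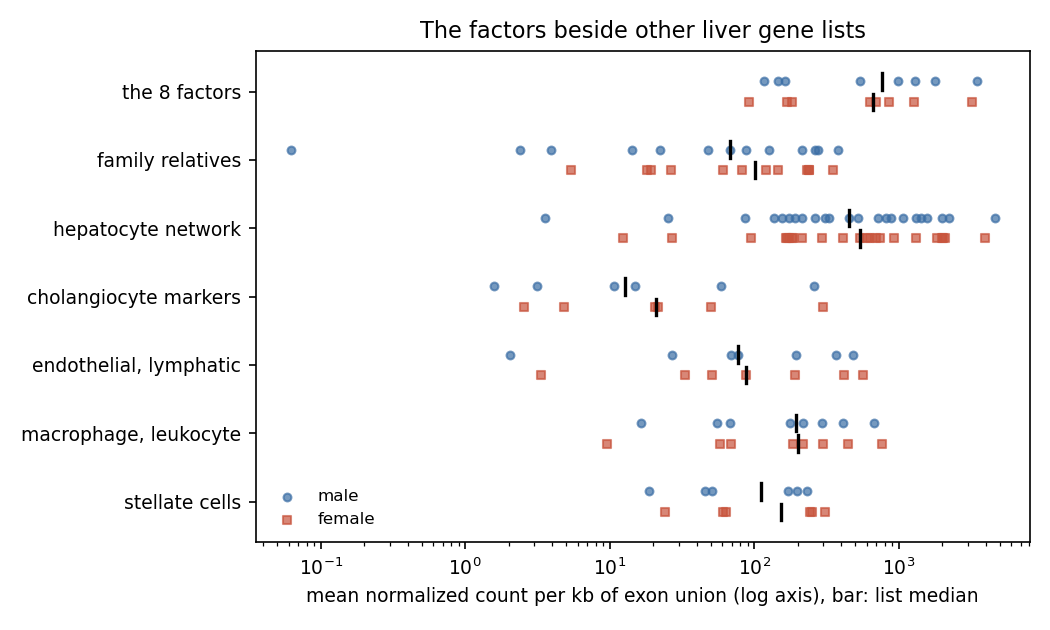
The authors' pooled mean normalized count per kb of exon union, on a log axis, for the genes of 7 lists, with males as circles, females as squares and the median of each list as a bar. The median of the 8 factors, 766 per kb in males and 664 per kb in females, lies to the right of those of the family relatives and of the 4 lists of other cell types.

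Genes annotated close to the factors had levels of their own. The long noncoding gene 9030622O22Rik, on the same strand as Foxa2 and 2228 bases from it, had a pooled mean of 3814 in males and 4514 in females, beside 396 and 620 for Foxa2. Sympk, which encodes a scaffold of the machinery that cleaves and polyadenylates RNA, starts 764 bases from Foxa3 on the opposite strand and had 2226 in males and 2247 in females, where Foxa3 had 2667 and 1424. Gm45091 overlaps Cebpa on the opposite strand by 313 bases, 51 of them in exons of Cebpa, with the starts of the genes 65 bases apart, and it had 22.7 in males and 33.4 in females. These values of neighbours are as deposited and not divided by length.

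The targeted gene, Midn, had a pooled mean of 1672 in males and 1357 in females, a centred log2 ratio of -0.32. Since each mean covers WT and Midn-T mice together, it does not show the effect of the gene trap, and the labels of genotype were not checked here.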

How the data were processed

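Liver RNA-seq covered 3 WT and 3 Midn-T mice per sex. The authors depleted ribosomal RNA, aligned reads to GRCm39 with STAR 2.7, counted uniquely mapped reads per Ensembl gene with HTSeq (reverse strand setting) and used DESeq2 separately for males and females. The signal column deposited by the authors holds the mean over 6 mice of counts divided by size factors, summing to 3.03e+07 in males and 3.08e+07 in females. It gives neither the depth of a library nor a spread. The other deposited columns hold the authors' comparison of Midn-T with WT (fold change, error, statistic and p-values). They were not used, so no genotype test was made. The deposited ATAC-seq lists hold only the authors' own differential regions and were not used, and 5 of the 8 ATAC-seq titles contradict the library names.

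Means were joined by Ensembl identifier and divided by exon unions from GENCODE M39, which holds 56323 of the male and 18045 of the female listed genes. The authors counted reads on another annotation release. Its exons can differ from those used here for lengths, neighbours and shared bases. Percentiles were taken over protein-coding genes with a mean of at least 10. The log2 ratio of female over male was centred on the median, 0.02, of genes with a mean of at least 50 in both tables. The ratio and the centring were checked on simulated data, but the join was not. Neighbours lie within 10 kb. Promoters are the 250 bases before the canonical start in the GRCm39 genome. Python 3.11.15, numpy 2.4.6, pandas 2.3.3 and matplotlib 3.10.9 were used. Genes named are the members, Midn, neighbours, close relatives, defining markers and the highest, lowest or middle of each list. Genes of known sex bias were named after their values were seen. The members and lists were chosen with earlier results of these data known, and the motifs, family shares and added lengths after the values were seen. Alternatives were other backgrounds, lengths and centrings.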

Additional observations from a re-analysis of the deposited data

How the results depend on the processing

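Of 56 alternative values, 49 kept their main value or moved little, 7 moved and 0 reversed in sign. Per kilobase of exon union, the number of factors at or above the 90th percentile in females was 5 in place of 3. With the coding length, which leaves out the long untranslated stretches, 6 factors in place of 3 held the same place in both sexes, and the share of Foxa3 in its family in females was 61.3%, that of Onecut2 was 90.5% in males and 94.6% in females, and that of Cebpa was 51.1% and 53.5%. The coding length and the shared-exon length were added after seeing the data. Of the 49, 24 are female to male ratios of the factors under no centring, scaling to the sums and centring on protein-coding genes, which move every gene alike and by little, so that their kept direction is no sign of stability. Leaving out a replicate was not run, and no paired analysis was possible because the values used are means over the 6 mice of a sex and come from no test. The means carry no error, so no difference between genes or sexes can be set against the spread between mice.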
